A study of Mus musculus with 12 samples.

Results

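Insr, Prr5, Akt1 and Gsk3b encode 4 proteins of the route by which insulin and other signals reach glycogen synthesis. They were chosen by name, for their place in this route and not by a threshold on measured values. The choice was made with earlier results of these data known. These genes make up 4 of the 1448 genes of a NanoString nCounter table of mouse peritoneal macrophage RNA. The assay counts barcoded probes hybridised to each transcript without amplification. The 12 samples fell into 4 groups of 3 mice. In the first, mice aged 20 to 22 months were gavaged for 6 weeks with PF-044, which blocks EP2, a receptor for prostaglandin E2 (daily dose 2.5 mg/kg). The second held untreated mice of that age. The third held mice aged 3 to 4 months on the same PF-044 course, and the fourth untreated mice of 3 to 4 months. The labels give no strain or sex and do not say whether untreated mice received vehicle.

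Insulin receptor, the product of Insr, is a tyrosine kinase that recruits phosphoinositide 3-kinase (PI3K) through adaptor proteins. The lipid that PI3K makes brings the kinase AKT, of which Akt1 encodes one form, to the membrane, where PDK1 and the mTORC2 complex phosphorylate it. Prr5 encodes a subunit of mTORC2, also called Protor-1, that binds the scaffold protein Rictor. AKT phosphorylates and inhibits glycogen synthase kinase 3, whose beta form Gsk3b encodes, and active GSK3 inhibits glycogen synthase. The study's model places this AKT and GSK3 beta axis downstream of EP2 in the control of macrophage glycogen. Only transcripts were measured here, so kinase activity and phosphorylation are outside these data.

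The EP2 receptor raises cyclic AMP, and transcripts driven by cyclic AMP often carry CRE elements near their start, so the sequences before the starts of these genes are shown for the 3 members that the RefSeq promoter table (GRCm38.p6) holds. Each is the 250 bases upstream of the gene's outermost listed start, 5′ to 3′ on the gene's own strand. Capitals mark FOXO motifs (TGTTTAC or GTAAACA), bound by factors that AKT inhibits, and CCAAT boxes (CCAAT or ATTGG), a common promoter element.
Akt1, chr12:112674885-112675134, minus strand: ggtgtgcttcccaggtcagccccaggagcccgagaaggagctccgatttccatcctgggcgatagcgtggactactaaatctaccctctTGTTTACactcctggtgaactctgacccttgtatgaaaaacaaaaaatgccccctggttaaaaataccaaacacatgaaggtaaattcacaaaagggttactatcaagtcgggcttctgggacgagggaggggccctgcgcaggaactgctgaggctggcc
Prr5, chr15:84662956-84663205, plus strand: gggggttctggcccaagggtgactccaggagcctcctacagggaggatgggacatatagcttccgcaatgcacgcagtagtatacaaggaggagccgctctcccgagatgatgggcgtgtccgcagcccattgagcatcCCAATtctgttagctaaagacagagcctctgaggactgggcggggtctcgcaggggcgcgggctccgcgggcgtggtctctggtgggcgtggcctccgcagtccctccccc
Gsk3b, chr16:38088751-38089000, plus strand: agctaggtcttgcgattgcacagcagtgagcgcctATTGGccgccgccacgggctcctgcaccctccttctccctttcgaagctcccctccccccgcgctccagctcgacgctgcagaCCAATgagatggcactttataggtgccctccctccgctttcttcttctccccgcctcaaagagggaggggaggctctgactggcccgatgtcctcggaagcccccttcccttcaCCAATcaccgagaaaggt
The Akt1 window held 1 FOXO motif, the Prr5 window 1 CCAAT box and the Gsk3b window 3. The full CRE (TGACGTCA) and its half-site (TGACG or CGTCA, which the full element contains) were in none of these windows, nor in the 2 windows at the inner starts of Akt1 and Prr5. Among all 32851 upstream windows of the same length, searched on both strands, 1.5% held the full CRE, 17.8% a half-site, 3.2% a FOXO motif and 33.8% a CCAAT box.

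The deposited values are normalized expression on the log2 scale with a floor at 4.32, which is 20 on the linear scale. Above the floor, the linear values of a sample were whole multiples of a constant step, so count equivalents could be inferred. These summed to between 533806 and 927614 per sample in 11 samples and to 175056 in aged untreated replicate 2, where 741 genes were at the floor, against 333 to 527 elsewhere. All 4 members belong to the largest of 3 gene sets with separate steps. Of 1190 genes above the floor somewhere, which were tested together with limma, 54.0% passed (adjusted p under 0.05) for age in untreated mice, 40.9% for PF-044 in aged mice, 14.1% for PF-044 in young mice and 25.7% for the difference between these PF-044 effects. All 6 macrophage markers in the table, Adgre1, Itgam, Csf1r, Cd68, Cd14 and Mertk, were above the floor in every sample, except Mertk in 1 aged untreated mouse. Of the 5 neutrophil markers in the table, Ly6g was at the floor in every sample and the other 4 were above it in some samples. Among those, Csf3r was at the floor in 1 aged untreated mouse only. The B cell markers in the table were above it in every sample. The T cell and mast cell markers were above it in some samples, but Tpsab1 and Kit were at it in all 3 aged untreated mice, Kit also in 2 aged PF-044 mice, and Cd4, Cd8a and Ms4a2 in 1 aged untreated mouse each. In bulk RNA, fewer cells of a type and less transcript per cell cannot be told apart.

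**Figure D1:**
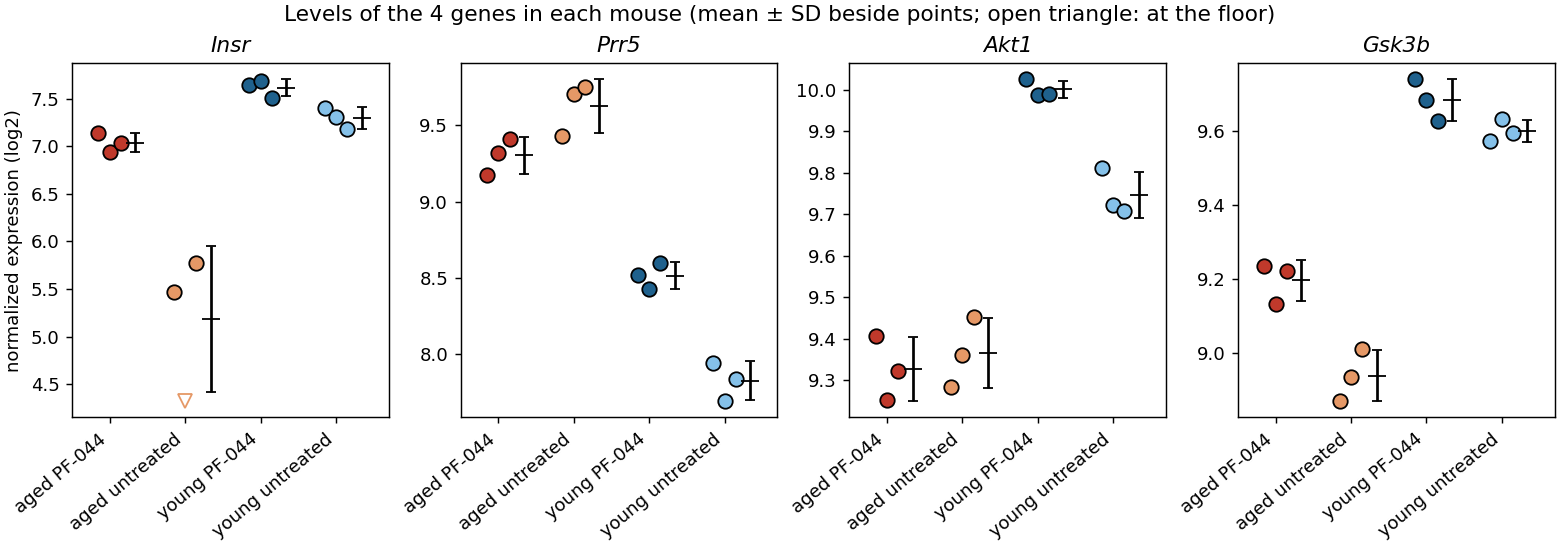
Normalized log2 expression of Insr, Prr5, Akt1 and Gsk3b in each of 12 mice, by group, with the mean and SD of 3 mice beside the points; each panel has its own vertical scale. Insr is lowest in the 3 aged untreated mice, 1 of them at the floor (open triangle), Prr5 is highest there, and Akt1 and Gsk3b are lower in all 6 aged mice than in all 6 young mice.

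Insr was low in aged untreated mice and stood near the young level in aged mice given PF-044. Its log2 values were 7.14, 6.94 and 7.03 in aged PF-044 mice, and 5.47, 4.32 (the floor) and 5.77 in aged untreated mice. They were 7.64, 7.69 and 7.51 in young PF-044 mice, and 7.40, 7.31 and 7.18 in young untreated mice. Every aged untreated value lay below every value of the other groups, and no 2 groups overlapped. Groups did not overlap for 56.4% of the 1190 genes with age in untreated mice, for 45.8% with PF-044 in aged mice and for 39.4% with PF-044 in young mice. The share was 51.8% between aged PF-044 and young untreated mice and 51.6% between aged and young PF-044 mice. The same shares stand beside the overlaps given below for the other members.

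The value at the floor needs a bound. In aged untreated replicate 2 fewer than 20 count equivalents were set to the floor, and 20 of them are worth 75.9 linear units there, so Insr was below 6.25 on the log2 scale in that mouse rather than measured at 4.32. The other aged untreated mice had 36 and 41 count equivalents, with exact 95% Poisson intervals (counting error only) of 4.95 to 5.94 and 5.29 to 6.21 in log2 units. The other 9 mice had 145 to 227.

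Between ages without drug, mean Insr was 5.19 ± 0.77 (SD, n = 3) in aged untreated mice, against 7.30 ± 0.11 in young untreated mice. The difference was -2.11 log2 units (SE 0.29, limma adjusted p 6.4e-05). This was the 27th largest fall of the 1190 genes. It was -1.68 (limma adjusted p 5.1e-07) without aged untreated replicate 2 and -1.47 with floored values set to their bound. Within aged mice, Insr was 7.04 ± 0.10 with PF-044, against 5.19 ± 0.77 without it, a rise of 1.85 (SE 0.29, limma adjusted p 0.00035). In that comparison 2 of the 1190 genes had a larger positive difference, and the Insr rise was 1.42 (limma adjusted p 8.2e-06) without aged untreated replicate 2 and 1.21 with the bound.

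In young mice the Insr difference with PF-044 was 0.32 (95% interval -0.32 to 0.95, limma adjusted p 0.59). The fit shares 1 variance per gene, and for Insr the SD was 0.77 in the aged untreated group and at most 0.11 in the others. Fitted on the young groups alone, the same difference passed (SE 0.09, limma adjusted p 0.044), and without aged untreated replicate 2 it did not (limma adjusted p 0.073). The PF-044 effect was larger in aged than in young mice by 1.53 (SE 0.41, limma adjusted p 0.017), or by 1.10 (limma adjusted p 6e-04) without aged untreated replicate 2. With a common floor of 100 linear units, which lies above all aged untreated values of Insr, this difference was 0.08 (limma adjusted p 0.58).

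From high to low, mean Insr ran from young PF-044 (7.61) through young untreated (7.30) and aged PF-044 (7.04) to aged untreated mice (5.19). Aged PF-044 mice differed from young untreated mice by -0.26 (95% interval -0.90 to 0.38, limma adjusted p 0.59), and from young PF-044 mice by -0.58 (limma adjusted p 0.15). The second of these passed without aged untreated replicate 2 (limma adjusted p 0.0014).

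Prr5 ran opposite to Insr between ages and had its lowest level in young untreated mice. Its log2 values were 9.17, 9.32 and 9.41 in aged PF-044 mice, and 9.43, 9.71 and 9.75 in aged untreated mice. In young PF-044 mice they were 8.52, 8.43 and 8.60, and in young untreated mice 7.94, 7.69 and 7.84. No 2 groups overlapped, though the highest aged PF-044 mouse and the lowest aged untreated mouse lay close together. Between 220 and 801 count equivalents stood behind each value.

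With age in untreated mice Prr5 rose by 1.80 (SE 0.10, limma adjusted p 3e-08), to 9.63 ± 0.18 (SD, n = 3) in aged, against 7.83 ± 0.13 in young untreated mice. That is 3.49-fold, the 17th largest rise of the 1190 genes, of which 21.2% rose. Across the 24 other settings the rise lay between 1.74 and 2.21 and passed in each. It also rose with age among PF-044 mice, by 0.79 (SE 0.10, limma adjusted p 7.2e-05).

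The Prr5 differences with PF-044 had opposite signs in aged and young mice. In young mice it rose by 0.69 (SE 0.10, limma adjusted p 0.0011), to 8.52 ± 0.09 in PF-044 mice, against 7.83 ± 0.13 in untreated mice. In aged mice it fell by 0.32 (SE 0.10, limma adjusted p 0.021), to 9.30 ± 0.12 in PF-044 mice, against 9.63 ± 0.18 in untreated mice. The fall did not pass without the aged PF-044 mouse numbered 1 (-0.26, limma adjusted p 0.091), aged untreated replicate 2 (-0.29, 0.060) or aged untreated replicate 3 (-0.26, 0.076). The difference between the PF-044 effects was -1.02 (SE 0.14, limma adjusted p 0.00031), and passed in all 23 other settings (-1.25 to -0.95). Aged PF-044 mice stayed above young untreated mice by 1.48 (SE 0.10, limma adjusted p 6.4e-07), the 4th largest such difference of the 1190 genes.

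B cell markers moved with Prr5 between ages. All 3 in the table, Ms4a1 and Blk among them, were higher in aged than in young untreated mice, and their summed linear level was 23030 to 26470 in aged PF-044, 42610 to 48220 in aged untreated, 9699 to 12540 in young PF-044 and 8838 to 9896 in young untreated mice. Ms4a1 and Blk fell with PF-044 in aged mice. The genes whose pattern over the 12 samples was most like Prr5 were Cd180, Tcf4 and Cd38. After each gene was centred on its own mean, their values differed from those of Prr5 by a root mean square of 0.18, 0.23 and 0.24 log2 units, while the SD of Prr5 over the samples was 0.74. The same 3 genes came out without aged untreated replicate 2. The part of B cells in the Prr5 differences was not tested.

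As deposited, Akt1 was lower in aged mice with and without PF-044, but the difference without PF-044 was near 0 when samples were centred on reference genes. Its log2 values were 9.41, 9.25 and 9.32 in aged PF-044 mice, and 9.28, 9.36 and 9.45 in aged untreated mice. In young PF-044 mice they were 10.03, 9.99 and 9.99, and in young untreated mice 9.81, 9.72 and 9.71. The aged groups overlapped, and the young groups overlapped neither each other nor the aged ones.

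With age in untreated mice Akt1 fell by 0.38 (SE 0.06, limma adjusted p 0.00012), to 9.37 ± 0.08 in aged, against 9.75 ± 0.06 in young untreated mice. This fall depends on how samples are scaled. It was -0.19 (limma adjusted p 0.0097) when each sample was centred on the median of the genes never at the floor, and 0.03 (limma adjusted p 0.82) with samples centred on the 4 reference genes of the table (Gapdh, Gusb, Hprt and Pgk1). These 4 reference genes were not steady themselves: 2 fell with age in untreated mice and 2 rose with PF-044 in aged mice. Gusb averaged 9.61 in young untreated, 8.11 in aged untreated and 8.86 in aged PF-044 mice. With age in untreated mice 32.9% of the 1190 genes passed as falls. Over all 1190 genes, whether they passed or not, 395 had a larger negative difference than Akt1. Among PF-044 mice the age difference was -0.67 (SE 0.06, limma adjusted p 3.5e-06), and it passed in all 24 other settings (-0.71 to -0.49).

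With PF-044 in young mice Akt1 rose by 0.25 (SE 0.06, limma adjusted p 0.011), with an untreated mean of 9.75 ± 0.06. The rise did not pass when samples were centred on the reference genes (0.26, limma adjusted p 0.12) or on the median of all tested genes (0.16, 0.14), nor without young untreated replicate 3 (0.24, 0.051). In aged mice the difference was -0.04 (95% interval -0.16 to 0.09, limma adjusted p 0.61), and it passed as a fall with 2 of the centrings (-0.17, limma adjusted p 0.03, on genes never at the floor and -0.27, 0.04, on the reference genes). The PF-044 effect in aged minus that in young mice was -0.29 (SE 0.08, limma adjusted p 0.018), and this passed in all 23 other settings (-0.53 to -0.25). Aged PF-044 mice differed from young untreated mice by -0.42 (limma adjusted p 0.00013), or by -0.24 (limma adjusted p 0.066) with centring on the reference genes.

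Gsk3b was lower in aged mice and partly higher again in those given PF-044. Its log2 values were 9.24, 9.13 and 9.22 in aged PF-044 mice, and 8.87, 8.94 and 9.01 in aged untreated mice. In young PF-044 mice they were 9.74, 9.68 and 9.63, and in young untreated mice 9.58, 9.63 and 9.60. The aged groups did not overlap each other or the young groups, and the young groups overlapped.

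With age in untreated mice Gsk3b fell by 0.66 (SE 0.05, limma adjusted p 5.9e-07), to 8.94 ± 0.07 in aged, against 9.60 ± 0.03 in young untreated mice. The fall passed in all 24 other settings, with a range of -0.70 to -0.26. In aged mice Gsk3b rose with PF-044 by 0.26 (SE 0.05, limma adjusted p 0.002), to 9.20 ± 0.06, against 8.94 ± 0.07. The rise did not pass when samples were centred on the median of the genes never at the floor (0.13, limma adjusted p 0.079), on that of all tested genes (0.14, 0.075) or on the reference genes (0.03, 0.81). In young mice the difference was 0.08 (95% interval -0.03 to 0.20, limma adjusted p 0.37). The difference between the PF-044 effects was 0.17 (95% interval 0.01 to 0.34, limma adjusted p 0.11). Aged PF-044 mice differed from young untreated mice by -0.40 (SE 0.05, limma adjusted p 9.8e-05).

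Macrophage markers moved with Insr and Gsk3b in aged mice. All 6 fell with age in untreated mice and all 6 rose with PF-044 in aged mice, while with PF-044 in young mice 1 rose and 2 fell. Their summed linear level was 7047 to 7826 in aged PF-044, 4695 to 5389 in aged untreated, 8008 to 8982 in young PF-044 and 10600 to 11450 in young untreated mice. All 7 T cell markers likewise fell with age and rose with PF-044 in aged mice. The part of cell composition in the differences of Insr, Akt1 and Gsk3b was not tested.

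**Figure D2:**
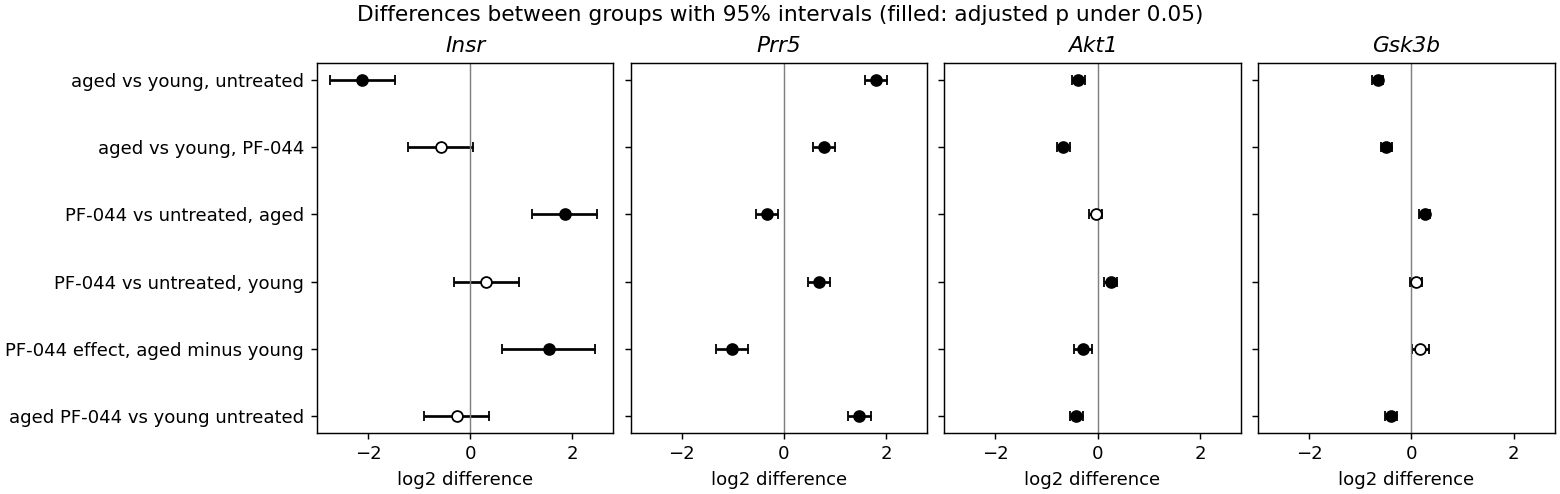
Log2 differences of the 4 genes in 6 comparisons of groups, with 95% intervals from the limma fit; filled points have an adjusted p under 0.05. Prr5 lies on the positive side and Akt1 and Gsk3b on the negative side of both age comparisons, and Prr5 has PF-044 effects of opposite sign in aged and young mice.

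The genes nearest to the other members were found in the same way. Their root mean square differences depend on a member's own SD, which was 1.04 log2 units for Insr, 0.30 for Akt1 and 0.32 for Gsk3b. They therefore do not rank the members by closeness of match. The genes most like Insr were Arpc4, Csf3r and Cd6 (0.20, 0.22 and 0.23 log2 units), which share its floor value in aged untreated replicate 2. Without that sample they were Kmt2a, Nfkb2 and Hk3 (0.17, 0.18 and 0.18). Akt1 was nearest to Cat, encoding catalase, to Stk11, encoding the AMPK-activating kinase LKB1, and to Snf8 (0.09, 0.09 and 0.10). Gsk3b was nearest to Taldo1, the transaldolase gene of the pentose phosphate pathway, to Srm, encoding spermidine synthase, and to Rhog (0.07, 0.07 and 0.08). Without aged untreated replicate 2 the nearest genes to Akt1 were Stk11, Cat and Slc3a2 (0.08, 0.09 and 0.10). Those to Gsk3b were then Atp5k, Srm and Taldo1 (0.06, 0.07 and 0.07).

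The difference between 2 members in the same sample does not depend on the scaling between samples, since the 4 genes share a step. Akt1 minus Gsk3b averaged 0.13 ± 0.04 (SD, n = 3) in aged PF-044, 0.43 ± 0.01 in aged untreated, 0.32 ± 0.04 in young PF-044 and 0.14 ± 0.08 in young untreated mice. Aged untreated values (0.41 to 0.44) lay above those of every other group, and aged PF-044 values (0.10 to 0.17) overlapped young untreated ones (0.09 to 0.23). Insr minus Akt1 was -2.29 ± 0.02 in aged PF-044 mice, -4.18 ± 0.75 in aged untreated mice (1 of them at the floor), -2.39 ± 0.09 in young PF-044 mice and -2.45 ± 0.07 in young untreated mice. Prr5 minus Akt1 was -0.02 ± 0.18 in aged PF-044, 0.26 ± 0.11 in aged untreated, -1.48 ± 0.09 in young PF-044 and -1.92 ± 0.09 in young untreated mice. For all 6 pairs of members in 5 comparisons, 30 tests that reuse the same 4 genes and 12 mice, the smallest two-sided exact permutation p was 0.10, the smallest that 3 against 3 mice allow (adjusted p 0.12 over the 30 tests), so none could pass.

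Of 77 genes listed for insulin, PI3K, AKT, mTOR, AMPK and glycogen metabolism, 41 were in the table, and all of these were tested. With age in untreated mice 7 rose and 16 fell, the members included, with a median difference of -0.17 beside -0.07 over all 1190 genes. Of all genes 54.0% passed, 21.2% as rises and 32.9% as falls. Without aged untreated replicate 2 the list had 6 rises and 15 falls, beside 280 and 380 over all genes. The split depends on scaling, in the list and over all genes. It was 11 rises and 11 falls with quantile normalization, beside 339 and 347 over all genes. With centring on genes above the floor it was 12 and 10, beside 403 and 316. With centring on the reference genes it was 16 and 7, beside 552 and 222.

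Among the kinases next to the members, Mtor, the catalytic subunit of both mTOR complexes, fell by 1.81 with age (SE 0.39, limma adjusted p 0.0019) with aged untreated replicate 2 at the floor, and gave -1.19 (limma adjusted p 6.8e-06) without it. Pik3cb, a PI3K catalytic subunit, fell by 1.73 with the same sample at the floor, and gave -1.15 without it. Akt2, a paralog of Akt1, gave -0.08 and did not pass. The AMPK subunit gene Prkab2 fell by 1.11, Myc by 0.80 and the mTORC1 inhibitor gene Akt1s1 by 0.52. The falls of Mtor, Pik3cb, Prkab2, Myc and Akt1s1 kept their sign in every setting, and the Akt1s1 fall did not pass with samples centred on the reference genes (-0.12, limma adjusted p 0.37).

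Smaller falls were those of Pik3cd (-0.49), the mTORC2 subunit gene Mapkap1 (-0.45), Stk11 (-0.38), the adaptor gene Shc1 (-0.36), Ctnnb1 (-0.24), which encodes the GSK3 substrate beta-catenin, Pik3ca (-0.22) and Pik3r1 (-0.16). The last 5 of these became positive when samples were centred on the reference genes, Pik3r1 also with both other centrings, and Pik3r1 then passed as a rise on the reference genes (0.25, limma adjusted p 0.0083). The Pik3cd fall did not pass on the reference genes (-0.08, limma adjusted p 0.56). With every other scaling run the calls of Mapkap1 (limma adjusted p 0.091 to 0.82), Shc1 (0.098 to 0.74), Pik3ca (0.062 to 0.90) and Ctnnb1 (0.12 to 0.70) ended. The Stk11 call ended with every centring (0.11 to 0.83), and the Mapkap1 call also without young untreated replicate 2 (0.055). The calls of Ctnnb1 and Pik3r1 ended when single samples were omitted, 3 for Ctnnb1 and 7 for Pik3r1. Rises included Pik3cg, the PI3K gamma gene (0.81), the adaptor gene Grb2 (0.52), the glucose transporter gene Slc2a1 (0.42), the S6 kinase gene Rps6kb1 (0.34) and Rictor (0.25). The Rictor call ended without aged untreated replicate 2 or 3 or young untreated replicate 1 or 3, each omitted singly (limma adjusted p up to 0.14), and that of Slc2a1 without young untreated replicate 3 (0.080). The remaining mTOR genes Mlst8 (-0.63), Rptor (-0.28) and Deptor (-0.17) did not pass.

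With PF-044 in aged mice 11 of the 41 genes rose and 3 fell, with a median of 0.13 beside 0.02 over all genes. Of all genes 40.9% passed, 25.7% as rises and 15.2% as falls. Without aged untreated replicate 2 the list counts were 11 and 2, beside 292 and 220 over all genes. With centring on genes above the floor the list counts were 7 and 6, beside 241 and 260 over all genes. With centring on the reference genes they were 5 and 8, beside 158 and 295. Mtor rose by 1.41 (SE 0.39, limma adjusted p 0.013; 0.79 without aged untreated replicate 2) and Pik3cb by 1.25 (limma adjusted p 0.020; 0.67 without it). The Pik3cb call ended (limma adjusted p 0.071 and 0.051) when aged PF-044 replicate 1 or 3 was omitted, with centring on the reference genes (1.01, 0.051), with the compared groups alone (0.089) and with the common floor of 100 (0.13, 0.16). The Mtor call ended with the compared groups alone (0.066). Prkab2 rose by 0.87, Pik3cd by 0.65 and Shc1 by 0.37, the Shc1 rise not passing with centring on the reference genes (0.14, limma adjusted p 0.37). Pik3cg fell by 0.48 (limma adjusted p 0.024). The Pik3cg call ended without aged PF-044 replicate 1 (0.056), aged PF-044 replicate 3 (0.093) or aged untreated replicate 3 (0.084).

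In young mice 6 of the 41 genes rose with PF-044 and 0 fell, with 8.40% of all genes rising and 5.71% falling. Without aged untreated replicate 2 there were 10 rises in the list, beside 146 over all genes. Besides Prr5 and Akt1 the 6 included Prkag1, an AMPK subunit gene (0.45), Pik3cd (0.40) and Grb2 (0.37). Omitting 1 mouse ended the Grb2 call for 4 of the 12 mice (limma adjusted p up to 0.071). Centring on all tested genes ended the calls of Pik3cd (0.31, limma adjusted p 0.071) and Grb2 (0.28, 0.073). The Grb2 call also ended on the reference genes (0.37, 0.095). Akt2 gave 0.47 and Mtor 0.52, and these did not pass with all mice. Without aged untreated replicate 2, which is in neither young group but shares in the variance, both passed with the same values (limma adjusted p 0.022 for Akt2 and 0.0069 for Mtor).

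Where the PF-044 effects were set against each other, 5 of the 41 genes had a higher effect in aged mice and 7 a lower one, against 25.7% of all genes passing. The higher ones included Prkab2 (0.83), Pik3ca (0.34) and Ctnnb1 (0.32) besides Insr. The lower ones included Pik3cg (-0.67), Grb2 (-0.58), Prkag1 (-0.44) and Rps6kb1 (-0.29) besides Prr5 and Akt1. Omitting 1 mouse ended the Ctnnb1 call for 7 of the 12 mice, the Pik3cg call for 8 and the Rps6kb1 call for 9. Centring on the reference genes ended the calls of Prkab2 (0.60, limma adjusted p 0.071), Pik3ca (0.10, 0.53) and Ctnnb1 (0.09, 0.65).

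Between aged PF-044 and young untreated mice 4 of the 41 genes were higher and 6 lower, with 34.5% of all genes passing and 19.5% of all genes lower. The higher ones included Grb2 (0.31) and Rps6kb1 (0.25) besides Prr5. The lower ones included Myc (-0.58), Stk11 (-0.34) and Akt1s1 (-0.29) besides Akt1 and Gsk3b. Omitting 1 mouse ended the calls of Grb2 and Akt1s1 for 3 and 4 of the 12 mice (limma adjusted p up to 0.073 and 0.079). The Stk11 call ended with centring on all tested genes (-0.25, limma adjusted p 0.083) and on the reference genes (-0.17, 0.28). The Akt1s1 call ended with every other scaling run (0.084 to 0.49), and the Grb2 call with quantile normalization (0.086). Between aged and young PF-044 mice 2 genes were higher and 10 lower, with 37.5% of all genes passing, and the counts were 2 and 14 without aged untreated replicate 2. Rictor was higher by 0.36, while Stk11 (-0.57), Myc (-0.57), Akt1s1 (-0.56), Akt2 (-0.53) and Rps6kb2 (-0.38) were among the lower ones. Omitting 1 mouse ended the Akt2 call for 9 of the 12 mice and the Rps6kb2 call for 4. Both calls also ended with every other scaling run (limma adjusted p 0.082 to 0.18 for Akt2 and 0.10 to 0.35 for Rps6kb2).

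**Figure D3:**
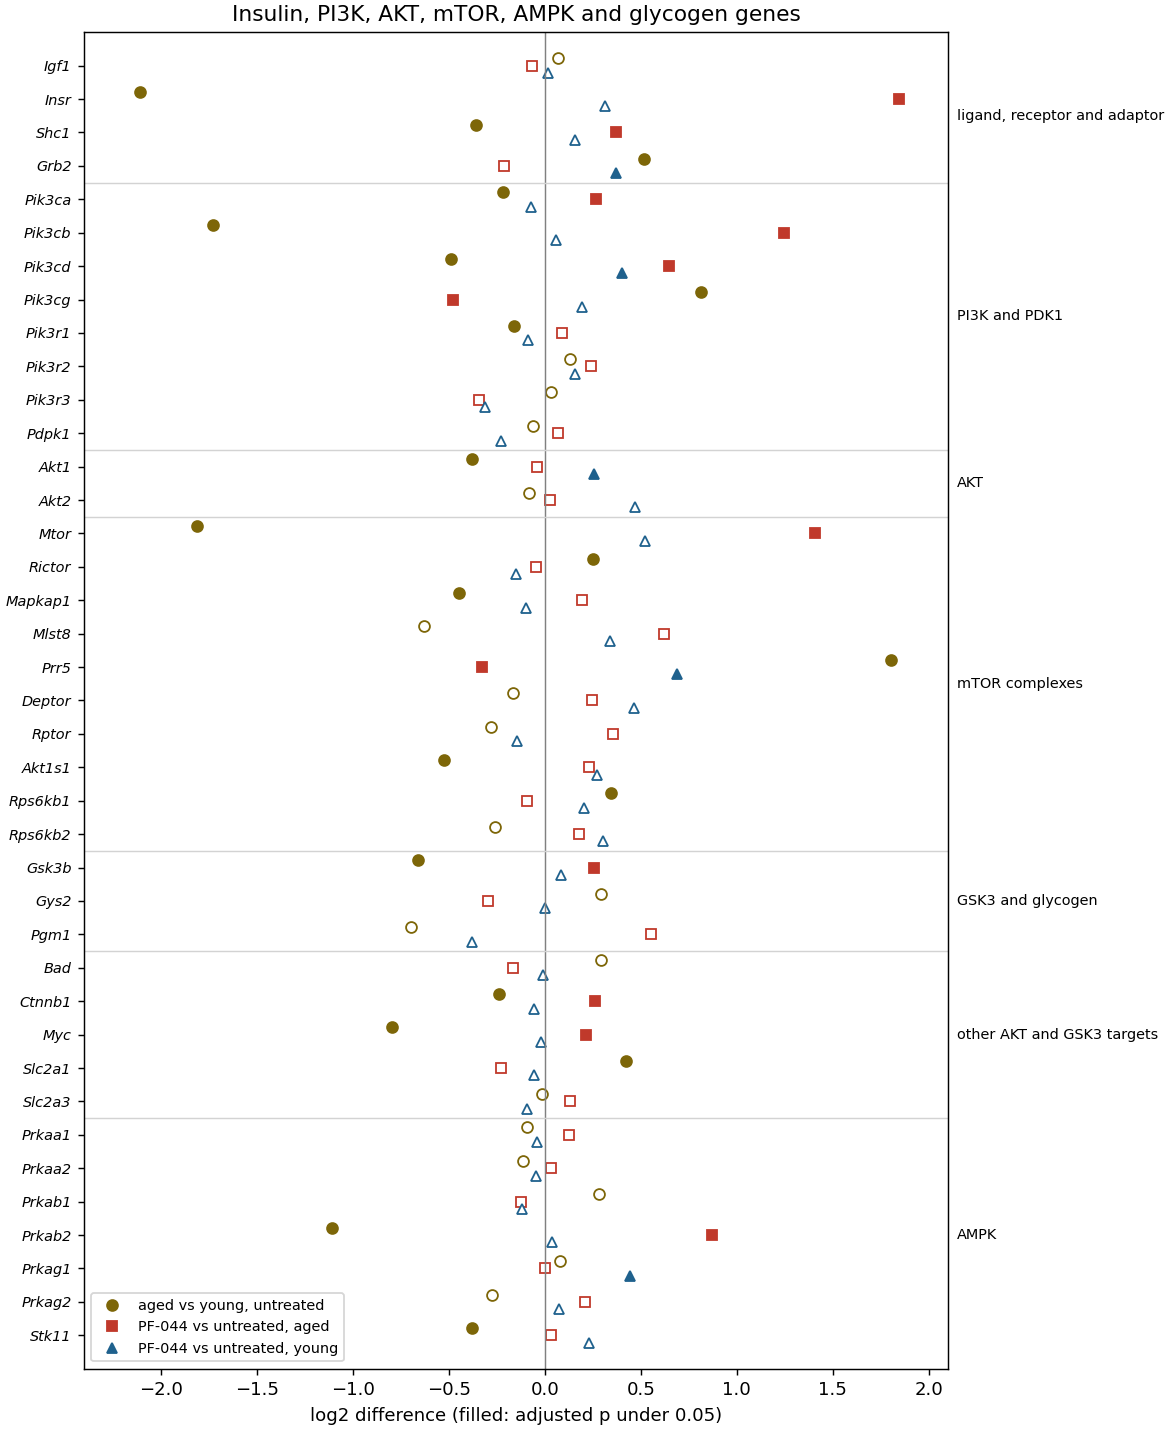
Log2 differences of 39 of the 41 listed genes, grouped by role, with age in untreated mice (circles), PF-044 in aged mice (squares) and PF-044 in young mice (triangles); filled symbols have an adjusted p under 0.05. Insr, Mtor, Pik3cb and Prkab2 lie far to the left with age and to the right with PF-044 in aged mice, in comparisons that share the aged untreated mice, and Prr5 lies far to the right with age.

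Ptger2, encoding EP2 itself, averaged 5.87 ± 0.08 in aged PF-044, 6.19 ± 0.23 in aged untreated, 5.40 ± 0.27 in young PF-044 and 5.59 ± 0.16 in young untreated mice (SD, n = 3 each), and neither PF-044 difference passed (-0.32 in aged and -0.19 in young mice). With age in untreated mice Ptger2 rose by 0.60 (SE 0.19, limma adjusted p 0.017). That call ended without young untreated replicate 1 (0.53, limma adjusted p 0.067), with array weights (0.35, 0.15) and with the compared groups alone (0.081).

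**Figure D4:**
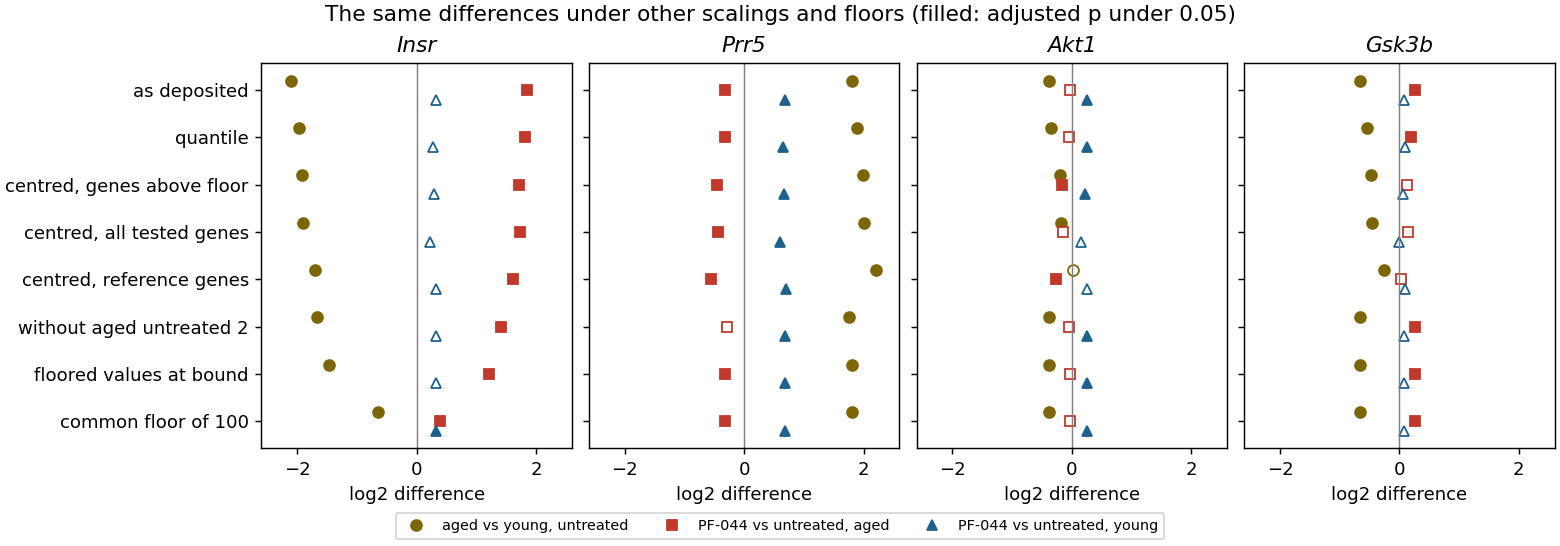
Log2 differences of the 4 genes with age in untreated mice (circles), PF-044 in aged mice (squares) and PF-044 in young mice (triangles) as deposited and under 7 other scalings, floors or sample sets; filled symbols have an adjusted p under 0.05. Prr5 keeps its sign throughout, Akt1 with age is at 0.03 when samples are centred on the reference genes, and the Insr differences with age and with PF-044 in aged mice shrink to -0.65 and 0.39 when the floor is raised to 100.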

How the data were processed

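RNA of peritoneal macrophages from 12 mice was measured on the NanoString nCounter, per the labels. The authors deposited 1 table of normalized log2 values. The submitters' processing notes name limma, without a version or role; background correction, scaling and genome build are not stated there or in the labels. Values were used as deposited. The 258 genes at the floor (4.32) in all samples were left out, and a model with 1 coefficient per group was fitted to the other 1190 (limma 3.58.1, R 4.3.3; moderated variances with a mean trend, 8 residual and 3.27 prior degrees of freedom). Tests were two-sided, adjusted by Benjamini and Hochberg over all genes of a comparison, with a threshold of 0.05. Changes are log2 differences with the SE of the fit, levels are mean ± SD of 3 mice.

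The series states the number of mice per group, so replicates are separate mice. The members and gene lists were chosen with earlier results of these data known, and the comparison of aged with young PF-044 mice was added after seeing the data. Named genes are the members, Ptger2, the up to 6 largest listed rises and falls that passed per comparison, AKT and mTOR partners and the 3 genes nearest to each member. Smaller falls and the genes behind short counts were also named after their values were seen. A few genes of these lists count in the totals but are not reported here by name. Of 1448 symbols, 1431 are current in the RefSeq table (GRCm38.p6) and 14 are synonyms. Count equivalents were inferred with a search that recovered 12 of 12 steps in simulated data, and 99.9% of values above the floor lay on a multiple within 0.0075 linear units. In data simulated for age in untreated mice (1190 genes), 90 of 100 genes changed by 1 log2 unit and 57 of 100 changed by 0.5 were recovered, and 6.96% of calls were false. The simulated noise had 1 SD per gene in all groups, with no floor and no sample of low depth. It therefore does not cover genes such as Insr, Mtor and Pik3cb. Alternatives covered scaling, floors, filters, variance models, the replicate number as a block and leaving out each mouse. The deviations of same-numbered mice had correlations of -0.15 to 0.33, above 0.1 in 5 of 18 pairs. In the main fit the numbers were not taken as pairs. Python 3.11.15 and SciPy 1.17.1 gave exact tests and Poisson intervals.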

Additional observations from a re-analysis of the deposited data

Results flagged for a closer look

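For 3 of the 4 genes the PF-044 effect in aged mice differed from that in young mice by a test of the difference itself, which 25.7% of the 1190 genes passed. For Insr the difference was 1.53 log2 units (limma adjusted p 0.017), with PF-044 effects of 1.85 in aged and 0.32 in young mice. Without aged untreated replicate 2, where Insr was at the floor, it was 1.10 (limma adjusted p 6e-04). For Prr5 it was -1.02 (limma adjusted p 0.00031), with effects of -0.32 in aged and 0.69 in young mice. For Akt1 it was -0.29 (limma adjusted p 0.018), with effects of -0.04 in aged and 0.25 in young mice. Within each age the 3 PF-044 mice and the 3 untreated mice did not overlap for Insr and Prr5, and for Akt1 they overlapped in aged mice only. Over all 1190 genes these groups did not overlap for 45.8% in aged mice and for 39.4% in young mice.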

How the results depend on the processing

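Of 566 values of the 4 genes under other settings, 541 kept their sign and side of the threshold. In 3 a difference that passed neither as deposited nor under the other setting turned sign: Akt1 with PF-044 in aged mice without aged untreated replicate 3 (0.0049), Gsk3b with PF-044 in young mice with centring on all tested genes (-0.0101) and the Gsk3b difference of PF-044 effects with centring on the reference genes (-0.0602). Each of the other 22 is given here, as a range where a mouse was left out, with each count of genes that moved by over 1.5 times, and the causes were not tested. Centring on the reference genes turned the Akt1 age difference in untreated mice to 0.0252 (limma adjusted p 0.82), gave Akt1 -0.2689 with PF-044 in aged mice (now passing), 0.2582 in young mice and -0.2437 between aged PF-044 and young untreated mice (neither passing), and gave Gsk3b 0.0269 with PF-044 in aged mice. Centring on all tested genes gave Gsk3b 0.1415 with PF-044 in aged mice and Akt1 0.161 in young mice, and centring on genes never at the floor gave Gsk3b 0.1304 and Akt1 -0.1654 with PF-044 in aged mice. With the common floor of 100, Insr passed with PF-044 in young mice (0.3164), between aged PF-044 and young untreated mice (-0.261) and between aged and young PF-044 mice (-0.5774), and its difference of PF-044 effects was 0.0755. Fitted on the compared groups alone, Insr passed with PF-044 in young mice (0.3164) and between aged and young PF-044 mice (-0.5774). The second also passed with array weights (-0.5049) and with floored values at their bound (-0.5774).

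Leaving out 1 mouse at a time gave Prr5 -0.4252 to -0.2607 with PF-044 in aged mice, Akt1 0.2351 to 0.2866 with PF-044 in young mice and Insr -0.6285 to -0.5271 between aged and young PF-044 mice. Listed genes passing ranged from 9 to 16 with PF-044 in aged mice (14 as deposited) and from 3 to 10 in young mice (6 as deposited), and all genes passing in young mice from 101 to 237 (168 as deposited). With the compared groups alone 9 listed genes passed with PF-044 in aged mice. In young mice 2 passed with centring on all tested genes, 3 on the reference genes, 11 with the common floor, 16 with array weights and 11 with the compared groups alone, and all genes passing were 107 on the reference genes, 388 with array weights and 280 with the compared groups alone. Array weights gave 17 listed and 643 of all genes between aged PF-044 and young untreated mice (10 and 410 as deposited), and 22 listed genes between aged and young PF-044 mice (12 as deposited). With the replicate number as a block no member's call changed (Gsk3b with PF-044 in aged mice 0.26, limma adjusted p 0.0047), and 651 genes passed for age in untreated mice, 502 for PF-044 in aged mice and 166 in young mice. Insr has no value where genes at the floor in any sample are left out, and the difference of PF-044 effects has none for the compared groups alone. Depth limits aged untreated replicate 2 most, where values below 75.9 linear units could not be measured for the members' gene set.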
